A study of Homo sapiens with 6 samples.

Results

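The metallothioneins, the zinc transporters and the zinc-sensing transcription factor MTF1 were followed in K562 cells, an erythroid leukemia cell line, after overnight exposure to an iron chelator. The genes were chosen by name and family, with earlier results of these data known: MTF1, 8 metallothioneins (MT1A, MT1E, MT1F, MT1G, MT1H, MT1M, MT1X and MT2A), 10 members of the SLC30 family (SLC30A1 to SLC30A10) and 14 members of the SLC39 family (SLC39A1 to SLC39A14), 33 of the 62252 genes in the tables. The Chelator group held 3 libraries from cells given 21H7, a cell-permeable iron chelator, at 10 µM, and the DMSO group held 3 libraries from cells that received an equal volume of solvent. Both groups were grown in the same serum-containing medium, no allele was altered in either, and polyadenylated RNA was sequenced. The question asked of these genes was whether their mRNA levels changed in Chelator in the way zinc-regulated genes can change.

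Zinc in the cell is held low and steady by proteins that bind it and by proteins that move it. Metallothioneins are small cysteine-rich proteins of the cytosol that bind zinc and copper. Most SLC30 (ZnT) transporters carry zinc out of the cytosol, across the plasma membrane or into organelles. SLC30A9 and SLC30A10, described below, are grouped with them by family. The SLC39 (ZIP) transporters carry zinc into the cytosol. MTF1 binds zinc through its zinc fingers and then turns on metallothionein genes and SLC30A1 through short DNA letters called metal response elements, while SLC39A10 is known as a gene that MTF1 holds down when zinc is plentiful.

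The stretches of 250 bases upstream of 3 gene starts are shown because SLC30A1, MT2A and MT1X are textbook MTF1 targets that were measured at useful levels here, and because they behaved differently from each other. The sequences are from RefSeq on GRCh38.p14 and are written in the direction of the gene. Capitals mark the core letters of the metal response element, TGCACNC or TGCGCNC, on either strand, and no marked run overlapped another. The SLC30A1 stretch is chr1:211579162-211579411 on the minus strand, that of MT2A is chr16:56608334-56608583 on the plus strand and that of MT1X is chr16:56682220-56682469 on the plus strand.
SLC30A1: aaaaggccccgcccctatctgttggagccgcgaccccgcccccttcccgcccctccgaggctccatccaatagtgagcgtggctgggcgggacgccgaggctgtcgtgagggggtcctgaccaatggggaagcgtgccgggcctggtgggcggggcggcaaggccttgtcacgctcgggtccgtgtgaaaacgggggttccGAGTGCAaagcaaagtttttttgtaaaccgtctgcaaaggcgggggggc
MT2A: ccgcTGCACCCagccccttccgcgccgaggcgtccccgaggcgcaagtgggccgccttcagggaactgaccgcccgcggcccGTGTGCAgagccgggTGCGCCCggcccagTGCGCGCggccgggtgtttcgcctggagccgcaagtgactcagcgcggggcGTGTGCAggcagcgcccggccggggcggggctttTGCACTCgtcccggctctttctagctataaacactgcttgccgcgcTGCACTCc
MT1X: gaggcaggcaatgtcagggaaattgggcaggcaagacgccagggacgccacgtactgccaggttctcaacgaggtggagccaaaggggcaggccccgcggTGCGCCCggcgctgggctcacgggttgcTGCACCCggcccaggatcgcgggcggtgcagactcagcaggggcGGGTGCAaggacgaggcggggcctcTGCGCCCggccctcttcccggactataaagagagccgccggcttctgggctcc

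The MT2A stretch held 7 such runs, the MT1X stretch 4 and the SLC30A1 stretch 1. Of all 35116 stretches of this length in the table, 24.8% held at least 1 run, 0.37% at least 4 and 0.0313% at least 7. An entry was found for 25 of the 33 genes, and 13 of them held a run in at least 1 of their stretches, where 28.5% of all 27305 genes in the table did. Counted by stretch, 14 of their 34 stretches held a run. Among the transporters, 10 of the 21 with an entry held one. Both SLC39A10 stretches held none, which says only that these letters are absent from those windows. MT1A, MT1E, MT1F, MT1G, MT1M, SLC30A8, SLC39A14 and SLC39A4 had no entry.

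The libraries held 78.6 to 90.4 M estimated counts in DMSO and 85.4 to 101.1 M in Chelator (M, 1e+06 counts). DMSO replicate 2 stood apart in its group, with a chi-square per gene of 58.1 and 40.5 against replicates 1 and 3, which had 8.04 between them. Chelator replicate 1 had 27.5 and 25.9 against replicates 2 and 3, which had 6.22 between them. Mitochondrial transcripts held 4.42% of the counts in DMSO replicate 2, against 7.06% and 6.65% in replicates 1 and 3. The mean sequenced fragment, read from transcripts without counts, was 252 to 264 bases long in DMSO and 200 to 218 bases in Chelator. This difference cannot be told apart from the treatment, and it bears most on short transcripts such as those of the metallothioneins. All 8 erythroid markers examined were expressed, summing to 11762 to 13033 TPM (a level per transcript length that sums to the same total in every library) in DMSO and 16456 to 17570 TPM in Chelator. The higher sum came from the globin genes HBG1, HBG2 and HBE1, which passed higher, while the erythroid transcription factor genes KLF1 (-0.72 on the log2 scale), NFE2 (-0.40) and TAL1 (-0.28) passed lower and GATA1 did not pass. The 11 markers of other cell types summed to 88.5 to 91.8 TPM in DMSO and 95.9 to 104 TPM in Chelator, mostly EPCAM and CD3D, and 5 of them were under 1 TPM in every library, with MS4A1 and CDH5 at 0. Within this sum CD3D rose from a mean of 12.8 to 39.8 TPM while EPCAM fell from 65.4 to 47.9 TPM, CD3E and COL1A1 also passed higher, and COL1A2 and PECAM1 also passed lower. Their part in the results was not tested. Of the genes known to respond to low iron, TFRC, which encodes transferrin receptor 1, rose by 2.89 (SE 0.10) on the log2 scale and TF, which encodes transferrin, by 3.50 (SE 0.14), while SLC40A1, which encodes the iron exporter ferroportin, fell by 0.54 (SE 0.08). Without the correction for transcript length these changes were 2.11 for TFRC, 1.32 for TF and -0.43 for SLC40A1. In bulk RNA, fewer cells with a transcript and less of it per cell cannot be told apart.

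Of the 33 genes, 3 had no counts in any library (MT1H, MT1M and SLC39A12), 3 had a total of 10 counts or fewer (MT1A, MT1G and SLC39A2), and 27 were tested. Changes are log2 fold changes of Chelator against DMSO from DESeq2's Wald test with their standard errors, and a gene passed at a Benjamini-Hochberg adjusted p under 0.05 over all genes tested. The test passed 19 of the 26 genes with an adjusted p, 14 of them lower and 5 higher in Chelator, where 37.7% of all genes passed, 18.3% lower and 19.5% higher. Their median log2 fold change was -0.31, against 0.02 over all genes. Without Chelator replicate 2 only 3 passed higher, and without Chelator replicate 3 only 2. MT1F alone of the 33 genes passed the study's stricter rule, which also asks for an absolute log2 fold change above 1 and which 10.8% of all genes met. MT1F had near 0 counts in DMSO and reached the minimum total only through the Chelator libraries. Nothing is read from this or from its place among the 5 higher genes.

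All 14 lower genes were transporters, most of them with high counts, for which small changes pass more easily. Among the 17 genes whose mean normalized count reached 1000, 13 passed lower and 1 passed higher, with a median log2 fold change of -0.33, where 63% of all 8942 genes at this level passed, 38.2% lower and 24.8% higher, with a median of -0.09. The 3 Chelator values lay wholly apart from the 3 DMSO values for 21 of the 27 genes, 15 lower and 6 higher, where this was so for 47.3% of all genes. Of the 6 higher genes, MT1E and MT1F reached the minimum total only through the Chelator libraries, and nothing is read from them. On a scale centred on the mean change of all genes the median over all genes was -0.18 and that of the zinc genes -0.50. On it 15 zinc genes passed lower and 3 higher, beside 25.4% of all genes lower and 12.1% higher.

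**Figure D1:**
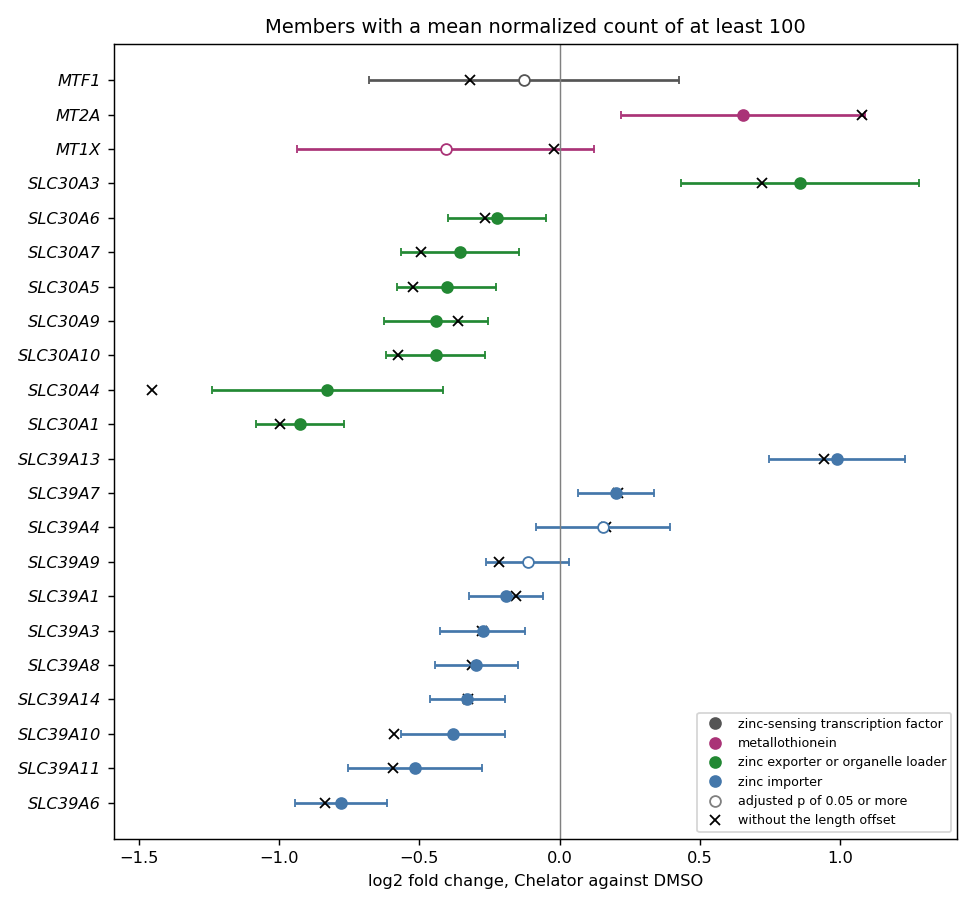
Log2 fold changes of Chelator against DMSO (horizontal axis) for the 22 genes whose mean normalized count reached 100, by role. Points are the fitted changes with 95% confidence intervals, open points had an adjusted p of 0.05 or more, and crosses are the same changes without the correction for transcript length. Most exporters and importers lie between 0 and -1, SLC30A3, SLC39A13 and MT2A lie to the right, and the crosses depart most from the points for SLC30A4 and MT2A.

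Zinc importers had the highest levels of these genes. Per transcript length, SLC39A7 stood highest in DMSO at 101 TPM, with 93.8 to 110 TPM over the 3 libraries, and was not separated from SLC39A3 at 96.5 to 100.3 TPM. SLC30A5 followed at 69.9 to 77.3 TPM and overlapped SLC39A4 at 61.0 to 72.6 TPM, and SLC30A9 lay at 51.2 to 63.7 TPM. Not all of this was coding mRNA: transcripts annotated as protein-coding made only 0.862 to 1.82% of the TPM of SLC39A4, or 1.05 TPM in DMSO, and 18.6 to 21.2% of that of SLC30A9, or 11.3 TPM in DMSO, against 90.9 to 96.3% in SLC39A7 and SLC39A3 and 96.7 to 98.8% in SLC30A5. Over all their transcripts, the 14 importers together made 450 ± 23.8 TPM in DMSO and 435 ± 22.2 TPM in Chelator (SD, n = 3), and the groups overlapped. The 10 exporters and organelle loaders together made 180 ± 12.7 TPM in DMSO and 137 ± 7.44 TPM in Chelator, and the groups did not overlap. This sum includes SLC30A9, a mitochondrial zinc exporter, at 57.4 TPM in DMSO and 43.0 TPM in Chelator. It also includes SLC30A10, which carries manganese. The 8 metallothioneins together reached only 22.0 ± 2.53 TPM in DMSO and 26.6 ± 1.099 TPM in Chelator, nearly all of it from MT1X and MT2A. The groups did not overlap here either, at 19.1 to 23.8 TPM in DMSO and 25.5 to 27.7 TPM in Chelator.

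**Figure D2:**
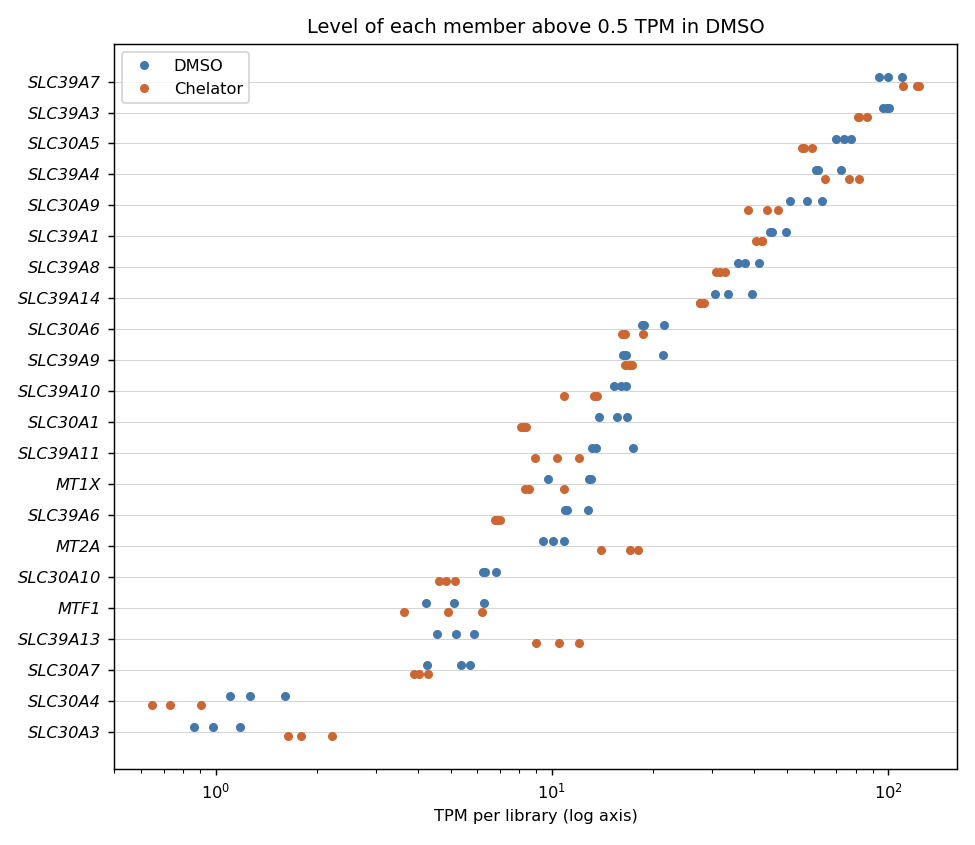
Level of each gene above 0.5 TPM in DMSO, in TPM on a log axis, with 1 point for each of the 3 DMSO and 3 Chelator libraries. The levels run from about 1 TPM for SLC30A3 and SLC30A4 to about 100 TPM for SLC39A3 and SLC39A7, and the Chelator points of SLC30A1 and SLC39A6 lie left of the DMSO points while those of SLC39A13 and MT2A lie right of them.

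MTF1, the sensor itself, did not pass the test. Its normalized counts (counts scaled for library size and for transcript length) were 3008, 2064 and 1992 in DMSO and 1651, 2096 and 2724 in Chelator. The groups overlapped, and the spread within each group was larger than the difference between them (log2 fold change -0.13, SE 0.28, 95% confidence interval -0.68 to 0.43, adjusted p = 0.78). This spread moved with a single short transcript. The 413-base transcript MTF1-202, for which no coding sequence is annotated, received 35, 0 and 0 counts in DMSO and 0, 26 and 43 in Chelator, and where it received counts it took 29.3 to 43.8% of the gene's TPM and lowered the gene's mean transcript length. The 7937-base protein-coding transcript MTF1-201 held 2122, 2542 and 2151 counts in DMSO and 2237, 2245 and 1904 in Chelator. Over protein-coding transcripts alone the log2 fold change of MTF1 was -0.25 (adjusted p = 0.023), and without the length correction it was -0.32 (adjusted p = 0.0015), so whether MTF1 passed depended on these choices.

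Among the metallothioneins, MT2A rose, MT1X did not pass, and MT1F passed from near 0 counts. MT2A, the metallothionein expressed in most human tissues, had normalized counts of 150.2, 118 and 159.8 in DMSO and 198, 241 and 234 in Chelator. All 3 Chelator values were above all 3 DMSO values, and the log2 fold change was 0.65 (SE 0.22, adjusted p = 0.011), a 1.57-fold higher mean level. The MT2A change lost its call without Chelator replicate 2 (0.60, adjusted p = 0.073) or replicate 3 (0.62, adjusted p = 0.058), and on the scale centred on the mean change of all genes (0.46, adjusted p = 0.12) or after removing trends with GC content and length (0.45, adjusted p = 0.088). Without the length correction it was 1.08. The estimated counts went from 126, 93 and 122 to 233, 338 and 281. Meanwhile the effective length of its 401-base transcript went from 155, 148 and 162 bases to 196, 210 and 218 bases. Effective length is about the number of positions at which a fragment of the library's size can start.

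MT1X, which lies downstream of MT2A in the metallothionein cluster, at chr16:56682470-56684196, had normalized counts of 193, 121 and 188 in DMSO and 153, 113 and 113 in Chelator. The groups overlapped and the log2 fold change was -0.41 (SE 0.27, 95% confidence interval -0.94 to 0.12, adjusted p = 0.25), or -0.02 without the length correction. Its main transcript of 404 bases is almost as long as that of MT2A, so their ratio within a library needs little correction for length. The estimated counts of MT2A per count of MT1X were 0.773, 0.939 and 0.859 in DMSO and 1.30, 2.14 and 2.11 in Chelator. Every Chelator ratio was above every DMSO ratio (0.857 ± 0.083 against 1.85 ± 0.476, SD, n = 3, exact two-sided permutation p = 0.1, the smallest that 3 against 3 allows). This ratio was chosen after the values were seen. Of the 31-base words of the main transcripts, 54.0% in MT1X and 31.5% in MT2A also occur in transcripts of other genes. MT1X and MT2A share words with each other, with MT1G and with pseudogenes. MT1X also shares words with an overlapping gene on the same strand at 0 TPM. The division of reads among these genes, and with it the ratio of MT2A to MT1X, is therefore uncertain.

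The remaining metallothioneins were at the edge of detection. MT1F had 2, 0 and 0 estimated counts in DMSO and 9, 17 and 14 in Chelator, with no overlap (log2 fold change 4.31, SE 1.47, adjusted p = 0.011). The size of this change is poorly known, as its 95% confidence interval of 1.43 to 7.19 shows, its log2 fold change was 4.27 (adjusted p = 0.055) without Chelator replicate 2 and 4.21 (adjusted p = 0.056) without replicate 3, and the gene reached the minimum total only through the Chelator libraries. MT1E had 0 counts in each DMSO library and 3, 3 and 8 in Chelator, and received no adjusted p. A count of 0 allows up to 3 counts in a library, the level of 2 of the 3 Chelator libraries, so no fold is given. MT1A had 0 counts in each DMSO library and 1, 5 and 3 in Chelator, and MT1G had 1 count in Chelator replicate 3 alone. The normalized Chelator means of MT1A and MT1G, 2.65 and 0.33, were under the normalized floor of 3.22. MT1H, whose upstream stretch held 8 metal response element runs, had no counts in any library, which allows up to 3 counts per library.

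**Figure D3:**
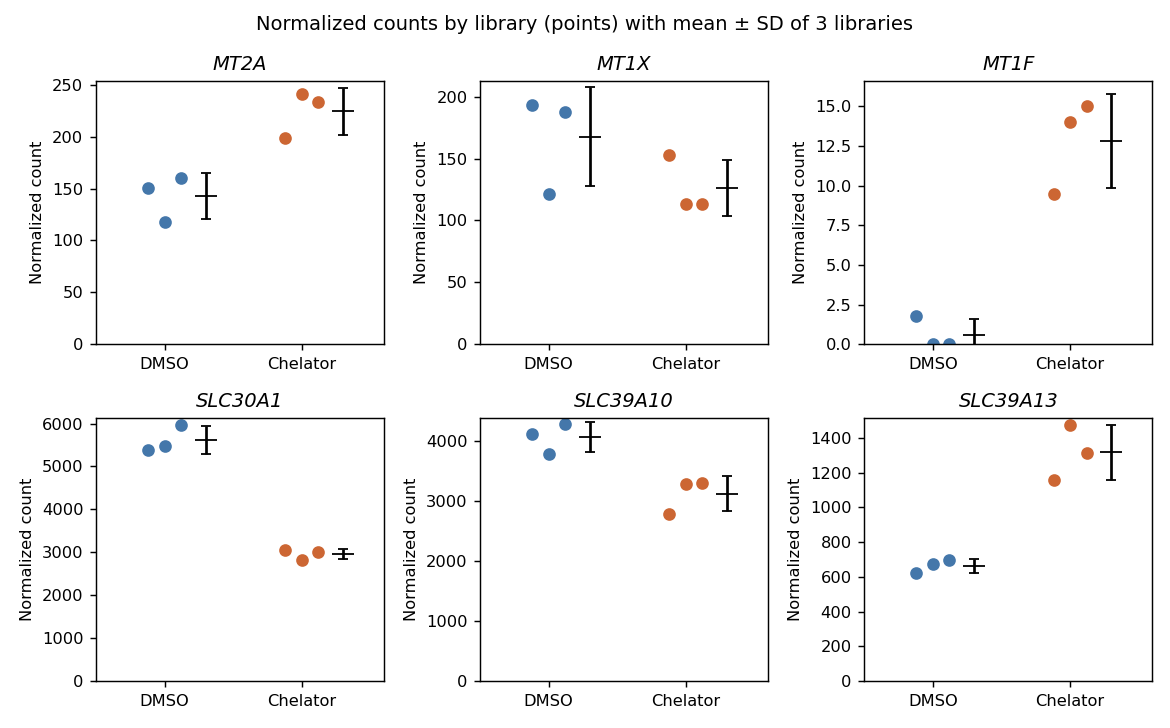
Normalized counts of 6 genes by library (vertical axes from 0), with points for the 3 DMSO and 3 Chelator libraries and the mean ± SD beside them. MT2A, MT1F and SLC39A13 are higher in all 3 Chelator libraries than in any DMSO library, SLC30A1 and SLC39A10 are lower in all 3, and the groups of MT1X overlap. MT1F reached the minimum total only through the Chelator libraries, and nothing is read from it.

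SLC30A1, which encodes ZnT1, the zinc exporter of the plasma membrane, had the smallest adjusted p of the 33 genes, and it fell. Its normalized counts were 5392, 5477 and 5977 in DMSO and 3056, 2816 and 2996 in Chelator, so that the highest Chelator value was far below the lowest DMSO value. The log2 fold change was -0.93 (SE 0.08, adjusted p = 1.9e-29), a decrease of the mean level to 0.526 of that in DMSO. No 31-base word of its transcript occurs in another gene, and without the length correction the change was -0.996. The change of MT2A, another MTF1 target, had the opposite sign.

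SLC30A10, which encodes a plasma-membrane exporter that carries manganese, also fell. Its normalized counts were 2149, 1981 and 2146 in DMSO and 1578, 1581 and 1460.1 in Chelator, a log2 fold change of -0.44 (SE 0.09, adjusted p = 5.9e-06). SLC30A9, which encodes a mitochondrial zinc exporter, went from 8449.5, 8849.9 and 9322 in DMSO to 7366, 6431 and 5819 in Chelator (log2 fold change -0.44, SE 0.09, adjusted p = 1.7e-05). The fitted level of SLC30A10 fell by 26.4% and that of SLC30A9 fell by 26.3%, and neither gene overlapped between the groups.

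The transporters that load zinc into the early secretory pathway also fell. SLC30A5 went from 8664, 7721 and 9439 normalized counts in DMSO to 6971, 6249 and 6304 in Chelator (log2 fold change -0.40, SE 0.09, adjusted p = 4.8e-05). SLC30A6, whose product works as a pair with that of SLC30A5, went from 4904, 4807 and 4881 to 4674, 3892 and 3943 (log2 fold change -0.22, SE 0.09, adjusted p = 0.036). SLC30A7, a transporter of the Golgi, went from 2069, 2337 and 2573 to 1965, 1689 and 1801 (log2 fold change -0.36, SE 0.11, adjusted p = 0.0035). None of these 3 genes overlapped between the groups. The call on SLC30A6 was lost in 9 alternatives, among them the fits without any 1 DMSO library or without Chelator replicate 2 or 3 (-0.23 to -0.17, adjusted p 0.051 to 0.18). Its value over protein-coding transcripts alone was -0.04 (adjusted p = 0.74), and the call on SLC30A7 was lost once GC content and length trends were removed (-0.13, adjusted p = 0.38).

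SLC30A4, a loader of endosomes and secretory vesicles, was low, at 1.33 TPM in DMSO, and fell with a change in its transcripts. Its normalized counts were 288, 309.6 and 247 in DMSO and 140.2, 149 and 189 in Chelator (log2 fold change -0.83, SE 0.21, adjusted p = 3.5e-04). The 7110-base protein-coding transcript SLC30A4-201 fell from 264, 308 and 241 estimated counts to 90, 98 and 71, while the 1336-base transcript SLC30A4-202, for which no coding sequence is annotated, had 61, 59 and 37 counts in DMSO and 42, 52 and 61 in Chelator. The share of SLC30A4-201 in the gene's TPM was 49.1% ± 5.31 in DMSO and 25.1% ± 5.08 in Chelator (SD, n = 3), without overlap, but the test of transcript usage did not call it (edgeR, Simes method, adjusted p = 1.0), whereas limma's diffSplice did (adjusted p = 0.0060). The loss was larger wherever the short transcript carried less weight, at -1.45 without the length correction and -1.76 over protein-coding transcripts. Exons of HMGN2P46, on the opposite strand, overlap 215 exon bases of SLC30A4, and that gene was at 0.578 TPM in DMSO and 0.124 TPM in Chelator, while 7.36% of the 31-base words of SLC30A4-201 also occur in other genes, HMGN2P46 among them. Their part in the result was not tested.

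**Figure D4:**
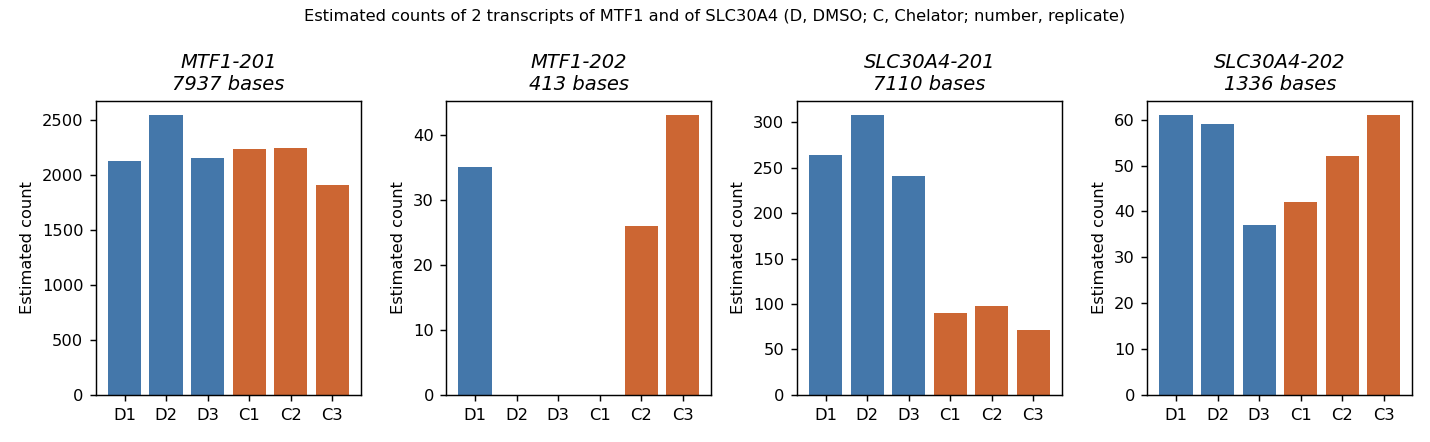
Estimated counts (vertical axes from 0, a different scale in each panel) of 2 transcripts of MTF1 and 2 of SLC30A4 in the 6 libraries, D for DMSO and C for Chelator with the replicate number. MTF1-202 received counts in 3 of the 6 libraries, in both groups, while the bars of SLC30A4-201 are lower in all 3 Chelator libraries than in any DMSO library.

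SLC30A3, known for filling synaptic vesicles with zinc, was the only exporter to rise. It was scarce, at 1.01 TPM in DMSO, and its normalized counts were 202, 149 and 239 in DMSO and 320.3, 329 and 419.7 in Chelator, without overlap (log2 fold change 0.86, SE 0.22, adjusted p = 3.4e-04). After removal of GC content and length trends it was 0.52 (adjusted p = 0.037). The other two members of the family were barely detected: SLC30A2 had 9 estimated counts in each DMSO library and 14 to 18 in Chelator, SLC30A8, the zinc transporter of insulin granules, had 14 to 21 in DMSO and 9 to 16 in Chelator, and neither passed. In all, 7 of the 10 exporters and loaders passed lower and 1 higher, beside the 18.3% and 19.5% of all genes.

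Among the zinc importers, SLC39A10 and SLC39A6, close relatives whose products pair at the plasma membrane, both fell. SLC39A10 had normalized counts of 4115, 3783 and 4272 in DMSO and 2779, 3275 and 3297 in Chelator, with no overlap (log2 fold change -0.38, SE 0.09, adjusted p = 2.7e-04). Its change was -0.59 without the length correction and -0.57 on the scale centred on the mean change of all genes. SLC39A6 had 2436, 2402 and 2436 in DMSO and 1453, 1347 and 1438 in Chelator (log2 fold change -0.78, SE 0.08, adjusted p = 8.0e-19). After SLC30A1 this was the strongest evidence of a loss among the zinc genes by adjusted p. SLC39A10, which MTF1 is known to repress, and SLC30A1, which it activates, thus fell together.

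SLC39A13, a transporter of intracellular vesicles and the Golgi known for its role in connective tissue, rose most of the importers. Its normalized counts were 619.9, 677 and 696 in DMSO and 1160.2, 1474 and 1316 in Chelator, a 1.98-fold higher mean level without overlap (log2 fold change 0.99, SE 0.12, adjusted p = 3.0e-14). After removal of GC content and length trends the change was 0.54 (adjusted p = 4.4e-05). SLC39A7, which releases zinc from the endoplasmic reticulum, passed higher at 17988, 16687 and 16620.0 normalized counts in DMSO and 18893, 19639.5 and 20460.4 in Chelator (log2 fold change 0.20, SE 0.07, adjusted p = 0.011), but its direction turned once GC content and length trends were removed (-0.04, adjusted p = 0.65) and its value was 0.01 on the scale centred on the mean change of all genes (adjusted p = 0.95). The call on SLC39A7 was also lost without DMSO replicate 3 (0.18, adjusted p = 0.070) or Chelator replicate 3 (0.17, adjusted p = 0.064).

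The importers that also carry other metals fell modestly. SLC39A14, which brings in iron and manganese as well as zinc, had 9777, 10663 and 10539 normalized counts in DMSO and 8397, 8143 and 8123 in Chelator (log2 fold change -0.33, SE 0.07, adjusted p = 1.0e-05). SLC39A8, its close relative, had 7719, 7503 and 8016 in DMSO and 6698, 5934 and 6285 in Chelator (log2 fold change -0.30, SE 0.08, adjusted p = 3.8e-04). In both genes all Chelator values lay below all DMSO values. Over protein-coding transcripts alone the change of SLC39A8 was -0.20 (adjusted p = 0.0027).

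The importers SLC39A11, SLC39A1 and SLC39A3 also passed lower. SLC39A11, found in the Golgi and nucleus, had 1403, 1572 and 1429.5 normalized counts in DMSO and 903, 992 and 1188 in Chelator (log2 fold change -0.52, SE 0.12, adjusted p = 1.2e-04). SLC39A1, an importer of the plasma membrane, had 7175, 6749 and 7183 in DMSO and 6173, 6055 and 6260.2 in Chelator (log2 fold change -0.19, SE 0.07, adjusted p = 0.016). SLC39A3, another plasma-membrane importer, had 11532, 10105 and 11668 in DMSO and 9219, 9269 and 9035 in Chelator (log2 fold change -0.27, SE 0.08, adjusted p = 0.0015). None of these 3 genes overlapped between the groups. Of the 31-base words of the main transcript, 95.9% in SLC39A1 and 28.1% in SLC39A3 also occur in other genes, mainly 1 that overlaps it on the same strand, at no more than 0.085 TPM beside SLC39A1 but at 80.3 TPM in DMSO and 59.7 TPM in Chelator beside SLC39A3, so the value of SLC39A3 is uncertain. With GC content and length trends removed the changes were larger, at -0.78 for SLC39A11, -0.48 for SLC39A1 and -0.72 for SLC39A3. Across the alternatives that kept every library the smallest falls were -0.47, -0.14 and -0.17, in the same order. The SLC39A1 call was lost with limma-voom (adjusted p = 0.069) and without DMSO replicate 3 (adjusted p = 0.061) or Chelator replicate 2 (adjusted p = 0.0504).

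SLC39A4, the intestinal zinc importer, SLC39A5 and SLC39A9 did not pass. SLC39A4 had 3165, 2277 and 2620.1 normalized counts in DMSO and 2693, 3197 and 3076 in Chelator, with overlap (log2 fold change 0.15, 95% confidence interval -0.08 to 0.39, adjusted p = 0.35), and its sign turned under 3 alternatives. Without DMSO replicate 1 it passed higher (0.28, adjusted p = 0.043), and after removal of GC content and length trends it passed lower (-0.31, adjusted p = 0.0080). SLC39A9 had 4945, 5479.8 and 4971 in DMSO and 4770.1, 4711 and 4749 in Chelator, without overlap but by little (log2 fold change -0.11, 95% confidence interval -0.26 to 0.03, adjusted p = 0.25). It passed lower on the scale centred on the mean change (-0.30, adjusted p = 0.0020), without the length correction (-0.22, adjusted p = 0.0098) and over protein-coding transcripts (-0.16, adjusted p = 0.039). SLC39A5 had 0 to 6 estimated counts in every library and SLC39A2 had 4, 0 and 2 in Chelator and none in DMSO. In all, 7 of the 14 importers passed lower and 2 higher, beside the 18.3% and 19.5% of all genes, or the 38.2% and 24.8% of genes with high counts.

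Transcript usage was examined in 19 of the genes, and 2 were called, where 9.22% of all genes tested were called. With limma's diffSplice in place of edgeR the count was 8, where 26.7% of all genes were called, among them SLC39A7 but not SLC30A6 (adjusted p = 0.16). A call needed an adjusted Simes p under 0.05 in edgeR's test and a change of over 5 percentage points in a transcript's share of the gene's TPM. In SLC39A7 (edgeR, Simes method, adjusted p = 1.1e-07) the retained-intron transcript SLC39A7-213 had no counts in DMSO and 291, 444 and 421 in Chelator, 1.51% of the gene's TPM, and the protein-coding transcript SLC39A7-207 had none in DMSO and 183, 106 and 266 in Chelator. The main coding transcript SLC39A7-202 went from 57.7% ± 1.19 to 48.5% ± 1.12 of the gene's TPM and SLC39A7-201 held 31.8 to 35.7% in DMSO and 38.1 to 40.0% in Chelator, in neither case with a usage call of its own (adjusted p = 1.0). An exon of RXRB on the opposite strand overlaps SLC39A7, and whether the counting used strand was not given in the sources used here. In SLC30A6 (edgeR, Simes method, adjusted p = 2.0e-04) the protein-coding transcript SLC30A6-204 had none in DMSO and 257, 201 and 150 counts in Chelator, 4.10% of the gene's TPM. In the fit with all libraries, the p of the call came in both genes from transcripts at 0 in every DMSO library. These reached the minimum count only through the Chelator libraries, and the share change came from other transcripts. No single transcript met both criteria: in SLC30A6 the change of 6.06 points was that of SLC30A6-207 (usage adjusted p = 1.0). A fit without a Chelator library drops the transcripts at 0 in DMSO by the minimum count, so it cannot test the call made with all libraries. Without Chelator replicate 1 SLC39A7 was still called (edgeR, Simes method, adjusted p = 3.7e-05), but that call rests on other transcripts. SLC39A7 was not called without replicate 2 (adjusted p = 0.33) or replicate 3 (adjusted p = 0.59). The call on SLC30A6 was lost without any 1 of the Chelator libraries (adjusted p = 1.0) and without DMSO replicate 1 (adjusted p = 0.0021, with no share change over 5 points).

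A list of 38 other genes of metal handling was examined beside them. Of these, 10 had no counts, 3 had 10 or fewer, and 14 of the other 25 passed, 10 lower and 4 higher, with a median log2 fold change of -0.12, beside the 37.7% of all genes that passed. Most were well expressed: 18 of the 25 had a mean normalized count of 1000 or more, a level at which 63% of all genes passed, 38.2% lower and 24.8% higher. On the scale centred on the mean change of all genes 11 passed lower and 2 higher, where 25.4% of all genes passed lower and 12.1% higher. All 12 further metallothionein genes and pseudogenes were at 0 or had at most 10 counts in total. Of the zinc chaperones of the ZNG1 family, ZNG1A fell by 0.37 (SE 0.10, adjusted p = 5.2e-04) and ZNG1E by 0.34 (SE 0.11, adjusted p = 0.0048, or 0.14 over protein-coding transcripts) on the log2 scale, and ZNG1B, ZNG1C and ZNG1F did not pass. These paralogs are nearly identical, so how their reads were divided is uncertain.

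The copper genes moved in both directions. SLC31A1, which encodes the copper importer of the plasma membrane, had 9475 ± 411 normalized counts in DMSO and 12857 ± 849.8 in Chelator (SD, n = 3, log2 fold change 0.44, SE 0.08, adjusted p = 6.4e-08), and the copper chaperones ATOX1 (0.49, SE 0.12) and CCS (0.30, SE 0.10) also passed higher. Both chaperones lost the call on the scale centred on the mean change of all genes (ATOX1 0.30, adjusted p = 0.074; CCS 0.11, adjusted p = 0.54) and after removal of GC content and length trends (ATOX1 0.24, adjusted p = 0.12; CCS -0.15, adjusted p = 0.20), whereas SLC31A1 kept it (0.25 and 0.41). The CCS call was also lost over protein-coding transcripts (0.10, adjusted p = 0.37) and without DMSO replicate 2 (0.25, adjusted p = 0.050), DMSO replicate 3 (0.29, adjusted p = 0.055) or Chelator replicate 3 (0.25, adjusted p = 0.082). The copper pumps ATP7A (-0.56, SE 0.09) and ATP7B (-0.39, SE 0.10) fell, as did CUTC (-0.62, SE 0.10) and the factors that build copper into cytochrome oxidase, SCO1 (-0.53, SE 0.08, or -0.98 without the length correction), COX11 (-0.76, SE 0.09) and SCO2. Over protein-coding transcripts the change of COX11 was smaller, at -0.34 (adjusted p = 0.040). COX17, the copper chaperone of the same oxidase, did not pass (0.08, SE 0.15, adjusted p = 0.75), although it passed higher without the length correction (0.39, adjusted p = 0.019), and neither SLC31A2 nor COMMD1 passed. SCO2 had the largest fall of the list, from 751 ± 105 to 325 ± 73.4 normalized counts (log2 fold change -1.21, SE 0.18, adjusted p = 3.7e-10). Of the genes tied to manganese, TMEM165 (-0.31, SE 0.07) and ATP13A1 (-0.34, SE 0.09) fell and ATP2C1 did not pass. TMEM165 was -0.51 on the scale centred on the mean change of all genes. ATP13A1 was -0.16 over protein-coding transcripts, -0.20 without the length correction and -0.73 with GC content and length trends removed.

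Of 4 further genes described as MTF1 targets, SELENOH, which encodes a nuclear selenoprotein, rose from 2515 ± 287 to 4633 ± 586 normalized counts (SD, n = 3, log2 fold change 0.88, SE 0.11, adjusted p = 2.3e-13). GCLC, the catalytic subunit of the enzyme that starts glutathione synthesis (0.20, SE 0.31, adjusted p = 0.68), PGF, a growth factor of blood vessels (-0.38, SE 0.29, adjusted p = 0.33), and HAMP, which encodes hepcidin (1.16, SE 0.80, adjusted p = 0.27), did not pass.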

How the data were processed

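Polyadenylated RNA of 6 K562 libraries, 3 DMSO and 3 Chelator by their labels, had been sequenced as paired-end Illumina reads. The labels do not say whether replicates were separate cultures, so p-values measure the spread between these libraries alone. The authors quantified transcripts with Salmon 1.10.2 and deposited estimated counts (86.9 to 88.0% of those above 0 were not whole, with no tolerance applied) and TPM for 252045 transcripts, unpooled. The annotation, strand setting and bias corrections were not given in the sources used here. The submitters' processing notes also name the build hg38.

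Transcripts were matched by identifier to GENCODE v44 (251142 with the same version, 470 with another, 433 without a match, which held 0.139 to 0.150% of counts). Counts were summed per gene and rounded. DESeq2 1.42.0 (R 4.3.3) tested 26074 genes with a total above 10, by the Wald test with median-ratio size factors and average transcript length as an offset. The adjusted p covers all genes, of which 24542 received one. Transcript usage was tested with edgeR 4.0.16 (diffSpliceDGE) on transcripts reaching 10 counts in 3 or more libraries, 11938 genes in all. Each step was first tested on simulated data. Normalization variants, filters, other tests (edgeR, limma 3.58.1), a replicate block and fits without each library were the alternatives. The main test did not pair libraries by replicate number, and the labels do not say whether they were paired. The correlations of same-numbered deviations were -0.018, 0.084 and 0.034, which cannot settle it.

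The genes and lists were chosen with earlier results of these data known. The named genes were all genes past the threshold, MTF1, SLC30A1, SLC39A10 and detected metallothioneins, and the remainder were given by counts and ranges. Values in every library of MT1A, MT1E, MT1G, SLC39A2, SLC39A4 and SLC39A9 were given beyond that rule, after they were seen.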

Additional observations from a re-analysis of the deposited data

How the results depend on the processing

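Of the 19 genes that passed, 13 passed in the same direction under all 16 alternatives: SLC30A1, SLC30A4, SLC30A5, SLC30A9, SLC30A10, SLC39A3, SLC39A6, SLC39A8, SLC39A10, SLC39A11 and SLC39A14 lower, and SLC30A3 and SLC39A13 higher. Of 410 single-gene values with an adjusted p, 373 kept their direction and side of the threshold, 22 fell short of it, 6 crossed it and 9 changed sign. The count that passed was 15 to 19 without 1 library, the lower count 12 to 14 and the higher count 2 to 6. Centring on the mean change of all genes gave 3 higher in place of 5 and removal of GC content and length trends also gave 3, and among the other metal-handling genes both gave 2 in place of 4, without ATOX1 and CCS. With the fold threshold added, 1 of the 19 remained, MT1F, from which nothing is read. Transcript usage calls numbered 8 in place of 2 with limma's diffSplice (26.7% of all genes called, against 9.22% with edgeR), which kept SLC39A7 and lost SLC30A6. They numbered 0 to 2 without 1 library, with 1 (SLC39A7) without DMSO replicate 1 or Chelator replicate 1 and 0 without Chelator replicate 2 or 3. Fits without a Chelator library drop the transcripts at 0 in DMSO that carried both calls, so they cannot test those calls. The SLC39A7 call without Chelator replicate 1 rests on other transcripts.

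Changes of sign came in genes with small or poorly known changes. MTF1 lay between -0.33 and 0.08 without 1 library, with 0.084 and 0.038 where DMSO replicate 1 or Chelator replicate 1 was left out, and SLC30A2 between -0.034 (without Chelator replicate 2) and 1.07. Over protein-coding transcripts SLC30A8 was 0.53 and SLC39A4 -0.10, and SLC39A4 was -0.042 on the centred scale. Without the length correction SLC39A5 was 0.19. With GC content and length trends removed SLC39A4 was -0.31 (adjusted p = 0.0080) and SLC39A7 -0.043. The cause was not tested. The median change of all genes moved to -0.18 on the centred scale and -0.14 with those trends removed.

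With the replicate number as a block, 19 genes passed, 14 lower and 5 higher, transcript usage calls numbered 2, and none of the 25 genes with an adjusted p in this fit changed its call. The numbers share no stated batch, and DMSO replicates 2 and 3 correlated best with their own number (0.084 and 0.034) but DMSO replicate 1 with Chelator replicate 3 (0.060). Depth limits the metallothioneins other than MT2A and MT1X, where a few counts decide the value, and the fragment length difference between the groups limits those 2 as well.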
